A study of Mus musculus with 2 samples.

Results

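The genes examined here encode the translation initiation and elongation factors of the cytosol, the proteins that bring a ribosome to the start codon of an mRNA and then move it along the message. They were chosen by a rule on names, as the protein-coding genes whose mouse symbol begins with Eif1 to Eif6 or with Eef1 or Eef2. The rule was set with earlier results of these data known. *Eif4a3*, whose product acts in the exon junction complex, and the eIF2 kinases, binding proteins, transporter and methyltransferases that carry these symbols were left out. The kinase gene *Eef2k* was kept by the rule. The rule found 54 of the 39695 gene entries, and 52 of them reached 1 RPKM on average over the libraries, as did 14831 entries in all. RPKM is the number of reads on a gene per kilobase of its length, scaled to the reads of the library.

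RNA was taken from whole testes of mice at 9 days after birth (P9), when spermatogonia prepare for meiosis, and 1 library was sequenced for each genotype. *Bcas2 F/-;Vasa-Cre* males carried a floxed and a deleted allele of *Bcas2*, a pre-mRNA splicing factor of the Prp19 complex, together with *Vasa-Cre*, a transgene that recombines the floxed allele in germ cells from before birth. Their library is called the mutant library below. Control males carried the same floxed and deleted alleles without the transgene, so that both genotypes were heterozygous for *Bcas2* in the somatic cells of the testis. The labels give the strain as C57BL/6, whereas the methods of the study describe a mixed background with 129, and the number of mice behind each library is not given in the sources used here. With 1 library per genotype there is no replicate to check a difference against, and p-values were not computed.

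In eukaryotes, initiation starts from a small ribosomal subunit that carries eIF1, eIF1A, eIF3, eIF5 and a ternary complex of eIF2, GTP and the initiator tRNA. The eIF4 factors bind the cap of the mRNA and unwind its leader, the loaded subunit scans to the start codon, and eIF5B joins the large subunit. eEF1A then delivers each aminoacyl-tRNA, eEF2 moves the ribosome by a codon, and eIF5A helps it over difficult stretches. The testis is a tissue in which mRNAs are often stored and translated later, and several of these factors have a second gene copy on a sex chromosome or with a restricted pattern of expression.

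The depth recovered from the deposited values was 19918750 counted reads for control and 19331687 for mutant testes. *Bcas2* itself (chr3:103171655-103179166, GRCm38) was at 39.5 RPKM in the control and 25.7 in the mutant library, from 1410 and 888 reads, and the log2 ratio of RPKM + 1 was -0.60. All 5 germ cell markers were lower in the mutant library, with a summed level of 469 RPKM in the control and 360 there, and so were all 5 markers of meiosis prophase I, with 101 and 65.1. All 4 measured Sertoli cell markers were higher, with 438 and 495 RPKM, and a further Sertoli marker, *Rhox5*, was listed at 0 in both libraries. The 4 measured granulocyte markers were at 25.8 RPKM in the control and 3.12 in the mutant library. Of the other 8 marker lists, medians of the log2 ratio ran from -0.46 for differentiating spermatogonia to 0.36 for Leydig cells. Markers of undifferentiated spermatogonia were split into 2 lower and 3 higher, with a median of 0.10, so that not all germ cell lists were lower. By RT-PCR at P9, the paper found *Mvh* (*Ddx4*), *Dazl*, *c-kit*, *Sohlh1* and *Stra8* similar in both genotypes, and *Dmc1*, *Scp1*, *Scp3* and *Smc1b* lower in the mutant. In its cell counts at later ages, germ cells at the basement membrane did not differ significantly in number. Germ cells in the centre of the tubules were apparently lost at such ages. The part of this cell makeup in the values below was not tested, and in a whole testis fewer cells of a type and less RNA per cell cannot be told apart.

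The translation factor genes were among the abundantly expressed genes of the P9 testis. They took 426353 reads in the control library, 2.14% of its total, and 388074 reads in the mutant library, 2.01%. Mean RPKM was over 100 for 25 of the genes, from 25 to 100 for 23 and from 1 to 25 for 4. Only *Eif4e1b* and *Eef1a2* were below 1. The plot of levels shows the values of both libraries side by side. RPKM compares genes per length, but the length behind each value is the authors' own. As recovered from the values, it was within 5% of the mean transcript length in GENCODE M21 for 29 of the 54 genes and over 1.5 times that length for 8, so that levels of different genes are approximate, whereas the ratio between the libraries does not depend on it.

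**Figure D1:**
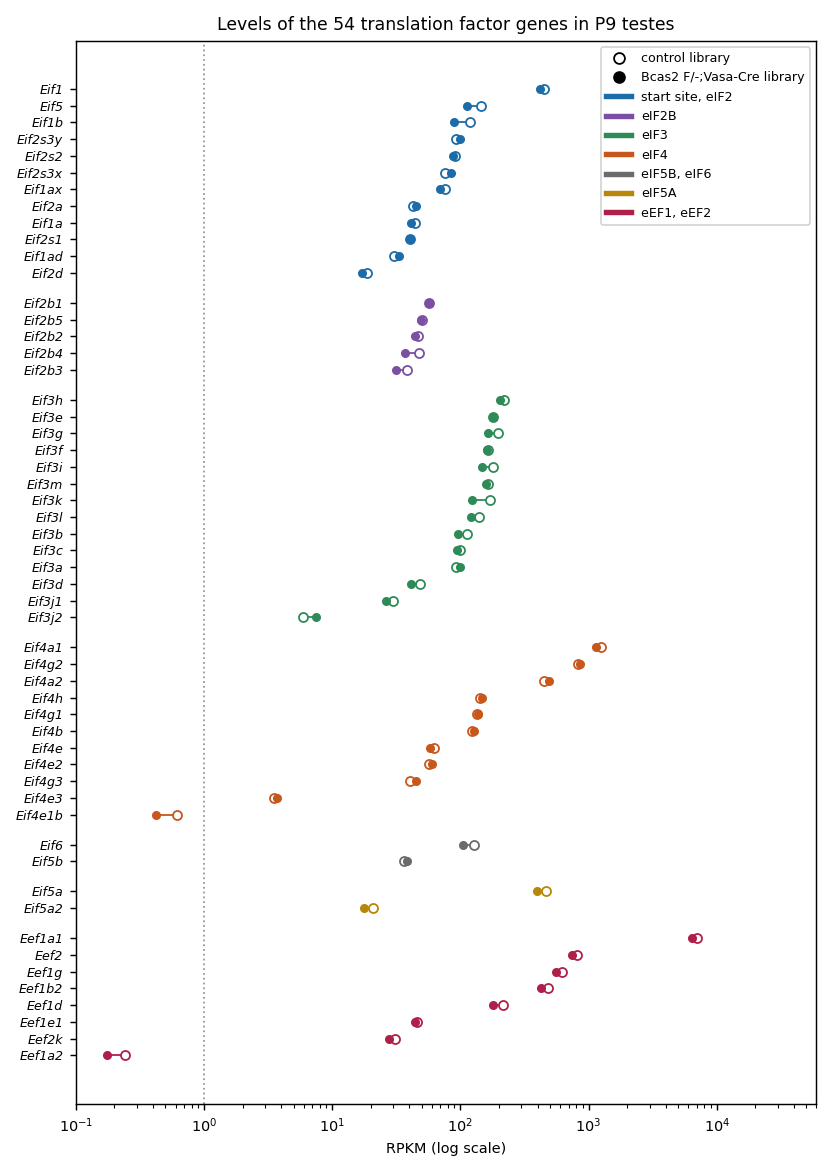
Level of each of the 54 translation factor genes in RPKM on a log axis, with open circles for the control library and filled circles for the mutant (*Bcas2 F/-;Vasa-Cre*) library, coloured by role and ordered by mean RPKM within a role. The circles of a gene lie close together over the whole range from *Eef1a2*, below the dotted line at 1 RPKM, to *Eef1a1* at 7024 and 6469.

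No translation factor gene was more than 1.5-fold apart between the libraries. The count was 0 of 52 lower and 0 of 52 higher, while 251 of all 14831 genes (1.69%) were more than 1.5-fold lower in the mutant library and 233 (1.57%) more than 1.5-fold higher. The log2 ratios of RPKM + 1, here and below mutant over control, ran from -0.47 for *Eif3k* to 0.29 for *Eif3j2*. Within this range 37 of the 52 genes were lower in the mutant library and 15 higher, with a median of -0.10. With RPKM rescaled to the same sum in both libraries, the split was 33 lower and 19 higher. Of all genes 46.3% were lower, and their median was 0.015. Of the 5054 protein-coding genes averaging 25 RPKM or more, which are nearer in level to the translation factors, 49.8% were lower, as were 35 of the 48 translation factor genes at that level. Lower values thus made up 71.2% of the translation factor genes, at differences that were small throughout.

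Whole reads could be recovered from the RPKM values of all 54 genes, and the 52 rested on 177 reads or more in each library, 43 of them on over 1000. From these reads a 95% Clopper-Pearson interval of the RPKM ratio was computed, without the added 1, which covers counting error only and not the spread between animals. For *Eif2a*, *Eif2s1*, *Eif2s2*, *Eif3e*, *Eif3m* and *Eef1e1* the recovered reads of both libraries share a whole factor and could be smaller by it, which would widen intervals that already include 0. The interval lay below 0 for 27 genes, above 0 for 10 and included 0 for 15. Among all genes with recovered reads, 17.9% had an interval below 0 and 19.9% above, and among protein-coding genes of at least 25 RPKM these shares were 27.1% and 26.4%. For well-read genes even a difference of a few percent exceeds counting error, so that such an interval says nothing of whether another pair of libraries would differ in the same way.

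**Figure D2:**
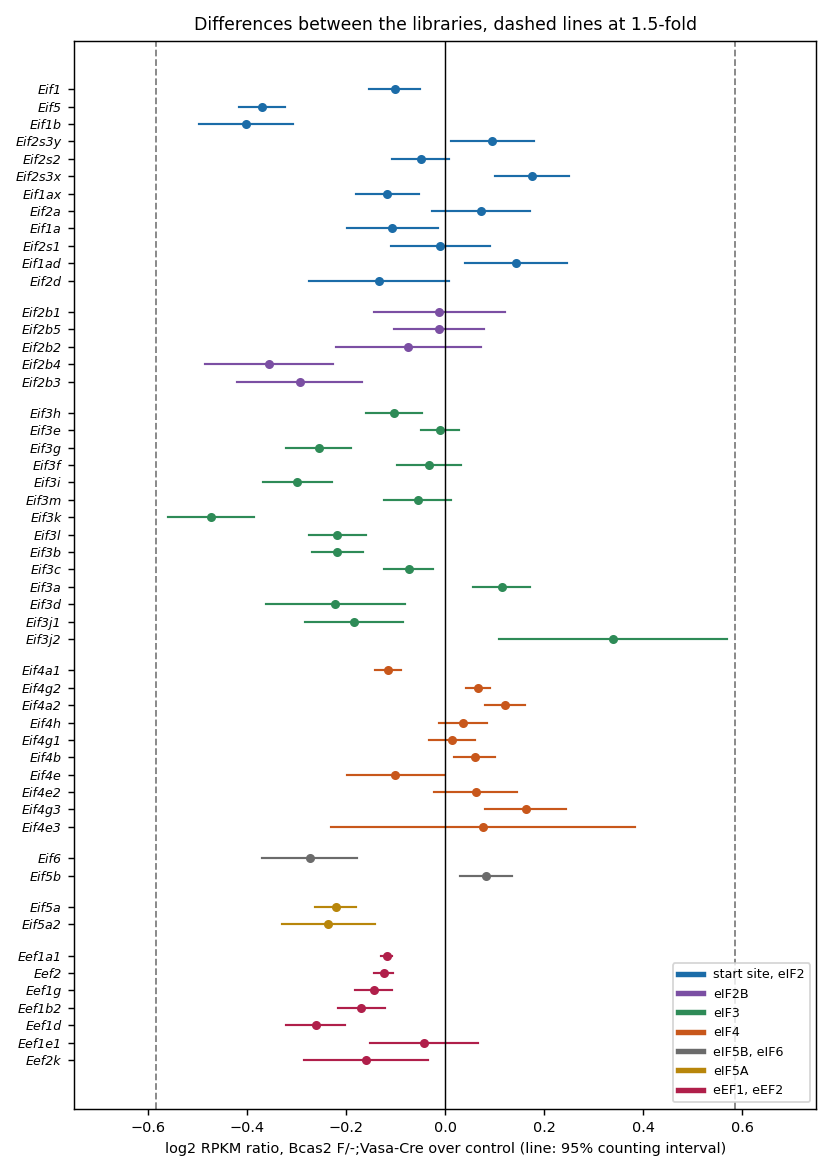
Log2 RPKM ratio of the 52 translation factor genes averaging 1 RPKM or more, mutant (*Bcas2 F/-;Vasa-Cre*) over control, with a line for the 95% counting interval and dashed lines at 1.5-fold. All points lie inside the dashed lines, most eIF3 and all 7 eEF points lie left of 0, and most eIF4 points lie right of it, where *Eif4g1* moves to the left if the median of all genes is set to 0.

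The start site factors and eIF2 were examined first. Of these 12 genes 8 were lower in the mutant library and 4 higher, with *Eif2s1* moving to the higher side when RPKM was rescaled. Their median log2 ratio was -0.08. The 2 furthest from 0 were *Eif1b* and *Eif5*. *Eif1b* (chr9:120492232-120495330), which encodes a close relative of the start codon factor eIF1, was at 118 RPKM in the control and 89.4 in the mutant library, from 2159 and 1585 reads. Its log2 ratio was -0.40, with an interval of -0.50 to -0.31. *Eif1* itself was at 453 and 422 RPKM, from 6458 and 5839 reads, with a log2 ratio of -0.10 and an interval of -0.15 to -0.05. *Eif1b* therefore made up 20.7% of the summed RPKM of this pair in the control and 17.5% in the mutant library. The longest coding transcripts of *Eif1* and *Eif1b* align over 350 bases with 81.1% identity, and 12.7% of the exon bases of *Eif1b* are shared with *D830035M03Rik*, an antisense gene.

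*Eif5* (chr12:111538016-111546752) encodes the factor that triggers GTP hydrolysis by eIF2 once the start codon is found. It was at 145 RPKM in the control and 112 in the mutant library, from 8493 and 6376 reads. The log2 ratio was -0.37 with an interval of -0.42 to -0.32, the narrowest interval among the 6 lowest genes. The length behind its RPKM is 2932 bases, and its transcripts average 44.9% GC.

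The 3 subunits of eIF2 are encoded by *Eif2s1*, *Eif2s2* and a pair of genes on the sex chromosomes, *Eif2s3x* and *Eif2s3y*. *Eif2s1*, the subunit phosphorylated under stress, was at 40.8 RPKM in the control and 40.5 in the mutant library, and its interval of -0.11 to 0.09 included 0. *Eif2s2* was at 90.5 and 87.5, with an interval of -0.11 to 0.01. Neither differed beyond counting error. *Eif2s3x* (chrX:94188707-94212862) was at 75.5 RPKM in the control and 85.2 in the mutant library, from 2747 and 3009 reads, with a log2 ratio of 0.17 and an interval of 0.10 to 0.25. *Eif2s3y* (chrY:1010543-1028847), which is needed for the proliferation of spermatogonia, was at 93.0 and 99.4 RPKM, from 2244 and 2326 reads, with a log2 ratio of 0.09 and an interval of 0.01 to 0.18. Both gene copies of the gamma subunit thus had the higher value in the mutant library. The Y copy accounted for 55.2% of their summed RPKM in the control and 53.8% in the mutant library. Their longest coding transcripts align over 1426 bases with 86.4% identity.

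The gene starts of this X and Y pair are shown because both hold the same motif. In RefSeq windows from 250 bases before to 50 bases after each start (GRCm38.p6), AAGATGGC, a motif known for the factor YY1, was found on either strand in 6 of the 42 translation factor genes with a window (14.3%) and in 3.19% of the 27025 genes with a window. The other 4 were *Eef1e1*, *Eif3f*, *Eif4a1* and *Eif4e*, and of the 6 genes 4 were lower in the mutant library and 2 higher (median -0.04), with *Eif3f* moving to the higher side once the length and GC trend is removed. The 3.19% includes genes that were not expressed. Of genes averaging 1 RPKM or more, 544 had the motif and 10101 lacked it, against 6 and 35 of the translation factor genes. Each sequence is written in the direction of its gene, from chrX:94212626-94212655 on the minus strand and chrY:1010591-1010620 on the plus strand. Capitals mark AAGATGG, the bases of the motif that lie in both stretches.
Eif2s3x: tttccttttctctccgagcAAGATGGctgg
Eif2s3y: agccacttccttctttcgtgagcAAGATGG

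Of the other genes of this group, *Eif1a* and *Eif1ax*, which encode 2 forms of the scanning factor eIF1A, were both somewhat lower. *Eif1a* was at 44.5 RPKM in the control and 41.4 in the mutant library, from 2054 and 1851 reads, with a log2 ratio of -0.10 and an interval of -0.20 to -0.02, and *Eif1ax* was at 75.3 and 69.4, from 4193 and 3751 reads, with a log2 ratio of -0.12 and an interval of -0.18 to -0.05. The X-linked gene made up 62.8% of their sum in the control and 62.7% in the mutant library. *Eif1ad*, an eIF1A domain gene, was at 30.1 and 33.2 RPKM, from 1481 and 1587 reads, with a log2 ratio of 0.14 and an interval of 0.04 to 0.25, and 15.3% of its exon bases lie opposite exons of *Banf1*. *Eif2a* and *Eif2d*, which encode alternative factors for the delivery of initiator tRNA, were at 43.0 and 45.2 and at 18.6 and 17.0 RPKM, and both intervals included 0.

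All 5 subunit genes of eIF2B, the factor that recharges eIF2 with GTP, had a lower value in the mutant library as deposited, but the subunits did not differ alike. *Eif2b4* (chr5:31187558-31193430), which encodes the delta subunit, was at 47.6 RPKM in the control and 37.2 in the mutant library, from 1133 and 859 reads. Its log2 ratio was -0.35 with an interval of -0.49 to -0.23. *Eif2b3*, the gamma subunit, was at 38.4 and 31.3 RPKM, from 1156 and 915 reads, with a log2 ratio of -0.29 and an interval of -0.42 to -0.17. The alpha, beta and epsilon subunits, *Eif2b1*, *Eif2b2* and *Eif2b5*, lay between -0.07 and -0.01, each with an interval that included 0, and *Eif2b1* and *Eif2b5* moved above 0 with rescaled RPKM, as did *Eif2b1* and *Eif2b2* once the length and GC trend was removed. The lower summed level of the complex, 240 RPKM in the control and 219 in the mutant library, thus came mainly from *Eif2b3* and *Eif2b4*. *Eif2b4* shares 7.85% of its exon bases with *Snx17* on the opposite strand.

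The eIF3 complex, the largest initiation factor and the scaffold that holds the others on the small subunit, had the largest single difference as deposited. Of its 14 genes 12 were lower in the mutant library and 2 higher, with *Eif3e* moving to the higher side when RPKM was rescaled and *Eif3f* when the length and GC trend was removed. The median log2 ratio was -0.14, and the summed level was 1805 RPKM in the control and 1623 in the mutant library. The interval lay below 0 for 9 genes. *Eif3k* (chr7:28971372-28981864), a small subunit that binds *Eif3l*, was at 171 RPKM in the control and 123 in the mutant library, from 2627 and 1836 reads. This was the lowest log2 ratio of all the translation factor genes, -0.47, with an interval of -0.56 to -0.39. Of the 5054 protein-coding genes averaging 25 RPKM or more, 57 (1.13%) had a log2 ratio as low as this, *Eif3k* included.

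*Eif3i*, a WD repeat subunit, was at 180 RPKM in the control and 146 in the mutant library, from 3862 and 3047 reads, with a log2 ratio of -0.30 and an interval of -0.37 to -0.23. *Eif3g*, which binds *Eif3i* in the complex, was at 196 and 164 RPKM, with a log2 ratio of -0.25 and an interval of -0.32 to -0.19. *Eif3b*, the subunit that anchors both, was at 112 and 96.5, with a log2 ratio of -0.22 and an interval of -0.27 to -0.17. These 3 subunits of the same module were lower by similar amounts. *Eif3l*, the partner of *Eif3k*, was at 141 and 121 RPKM with a log2 ratio of -0.22 and an interval of -0.28 to -0.16. *Eif3e*, *Eif3f* and *Eif3m*, which belong to the same ring of core subunits as *Eif3k* and *Eif3l*, were at 181 and 180, 165 and 162, and 165 and 159 RPKM, and all 3 intervals included 0. Of the other ring subunits, *Eif3h* was at 218 and 203 RPKM with an interval of -0.16 to -0.05, and *Eif3c* was at 99.4 and 94.4 with an interval of -0.12 to -0.02. Subunits that sit in the same complex thus differed between the libraries by up to 28.0% for *Eif3k* and by as little as 0.748% for *Eif3e*.

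*Eif3a*, which encodes the largest subunit, was on the higher side with 92.2 RPKM in the control and 99.8 in the mutant library, from 4753 and 4993 reads, a log2 ratio of 0.11 and an interval of 0.06 to 0.17. The other higher value in this group was that of *Eif3j2*, which together with *Eif3j1* encodes the loosely bound j subunit. *Eif3j2* was at 5.94 RPKM in the control and 7.51 in the mutant library, from 286 and 351 reads, and its log2 ratio was 0.29 on the scale of RPKM + 1 and 0.34 without the added 1, with an interval of 0.11 to 0.57. *Eif3j1* was at 29.97 and 26.4 RPKM, from 1793 and 1532 reads, with a log2 ratio of -0.18 and an interval of -0.28 to -0.08. The values of this pair are uncertain, because the single transcript of *Eif3j2*, 2379 bases, matches that of *Eif3j1* with 99.4% identity over its whole length, and reads on either could be assigned to the other. Taken as 1 gene, the pair had 2079 reads in the control and 1883 in the mutant library, with a log2 ratio of -0.10 and an interval of -0.19 to -0.01. In addition, 19.0% of the exon bases of *Eif3j1* lie opposite exons of *Spg11*. *Eif3d*, which can bind the cap in place of eIF4E, was at 48.1 and 41.2 RPKM, and 43.3% of its exon bases overlap the antisense gene *Gm17638*.

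The eIF4 factors, which bind the cap and unwind the leader, were the only role group of more than 2 genes in which most values were higher in the mutant library. Of the 10 measured genes 8 were higher and 2 lower, with *Eif4g1* moving to the lower side when the median of all genes was set to 0, and the median log2 ratio was 0.06. With the length and GC trend removed, 8 of these genes were again higher and 2 lower, but the median was 0.03. Their summed level was 3078 RPKM in the control and 3073 in the mutant library. The differences were small, from -0.12 to 0.16, and the interval lay above 0 for 4 genes, below 0 for 2 and included 0 for 4.

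*Eif4a1* and *Eif4a2*, which encode 2 forms of the RNA helicase eIF4A, differed in opposite directions. *Eif4a1* (chr11:69666936-69672423) was at 1241 RPKM in the control and 1145 in the mutant library, from 24104 and 21583 reads, with a log2 ratio of -0.12 and an interval of -0.14 to -0.09. *Eif4a2* (chr16:23107444-23114136) was at 448 and 487 RPKM, from 9876 and 10423 reads, with a log2 ratio of 0.12 and an interval of 0.08 to 0.16. *Eif4a2* thus made up 26.5% of their sum in the control and 29.9% in the mutant library. The coding transcripts align over 1040 bases with 78.5% identity. *Eif4h*, a cofactor of the helicase, was at 143 and 147 RPKM with an interval that included 0, and *Eif4b*, a second cofactor, was at 123 and 129 with an interval of 0.02 to 0.10.

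The 3 scaffold genes were all on the higher side as deposited, *Eif4g1* by the least and only until the median of all genes was set to 0. *Eif4g1* was at 135 RPKM in the control and 136 in the mutant library, from 7413 and 7260 reads, with a log2 ratio of 0.01 and an interval of -0.03 to 0.06. *Eif4g3*, the paralog whose loss is known to arrest male meiosis, was at 40.1 and 44.9, from 2322 and 2522 reads, with a log2 ratio of 0.16 and an interval of 0.08 to 0.24. *Eif4g2*, which encodes the relative DAP5 that lacks the site for eIF4E, was at 824 and 863 RPKM, from 25455 and 25859 reads, with a log2 ratio of 0.07 and an interval of 0.04 to 0.09. *Eif4g2* was therefore several times as high in RPKM as both other scaffolds in each library.

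Of the cap-binding proteins, *Eif4e* was at 62.1 RPKM in the control and 57.9 in the mutant library, from 1782 and 1612 reads, with a log2 ratio of -0.10 and an interval whose upper end was -0.003. *Eif4e2*, whose product represses many of the mRNAs it binds, was at 57.1 and 59.6, from 2266 and 2295 reads, with a log2 ratio of 0.06 and an interval of -0.02 to 0.15. *Eif4e3* was at 3.53 and 3.72, from 177 and 181 reads, with a log2 ratio of 0.06 and an interval of -0.23 to 0.38. *Eif4e1b*, a form known from oocytes, was at 0.619 RPKM in the control and 0.425 in the mutant library, from 12 and 8 reads, and a difference was not detectable at this depth, with an interval of -2.04 to 0.87.

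Of the factors of the late steps, *Eif5b*, the GTPase that joins the subunits, was at 36.5 RPKM in the control and 38.7 in the mutant library, with a log2 ratio of 0.08 and an interval of 0.03 to 0.14, but moved to the lower side once the length and GC trend was removed. It is the gene with the greatest length among the translation factors, 7797 bases, and 16.9% of its exon bases lie opposite exons of *Rev1*. *Eif6*, which keeps free large subunits apart from small ones, was at 128 and 105 RPKM, with a log2 ratio of -0.27 and an interval of -0.37 to -0.18. The 2 genes of eIF5A, the only protein known to carry hypusine, were lower by nearly the same ratio. *Eif5a* was at 462 and 396 RPKM, from 10427 and 8680 reads, with a log2 ratio of -0.22 and an interval of -0.26 to -0.18, and *Eif5a2* was at 20.7 and 17.6, from 2060 and 1697 reads, with a log2 ratio of -0.22 and an interval of -0.33 to -0.14. *Eif5a* was 22.3 times as high as *Eif5a2* in the control library and 22.5 times in the mutant library. The enzymes that make hypusine were lower too, with *Dhps* at 44.6 and 38.6 RPKM and *Dohh* at 61.1 and 52.2.

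All 7 measured genes of the elongation factors and their kinase were lower in the mutant library, under each scaling tried and with the length and GC trend removed, and the interval lay below 0 for 6 of them. The median log2 ratio was -0.14, and the summed level was 9223 RPKM in the control and 8448 in the mutant library. Most of this sum was *Eef1a1* (chr9:78478449-78489151), which encodes the carrier of aminoacyl-tRNA and was at 7024 RPKM in the control and 6469 in the mutant library, from 132917 and 118798 reads. Its log2 ratio was -0.12 with an interval of -0.13 to -0.11. *Eef1a1* alone held 31.2% of the reads of all translation factor genes in the control and 30.6% in the mutant library, and 3 entries of the whole table were higher than it in each.

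*Eef2* (chr10:81176631-81182498), the translocase, was at 806 RPKM in the control and 739 in the mutant library, from 49739 and 44274 reads, with a log2 ratio of -0.12 and an interval of -0.14 to -0.11. The 3 subunits of eEF1B, the exchange factor of eEF1A, were lower by similar or somewhat larger amounts. *Eef1g* was at 621 RPKM in the control and 562 in the mutant library, from 12105 and 10627 reads, with a log2 ratio of -0.14 and an interval of -0.18 to -0.11. *Eef1b2* was at 480 and 427, from 7843 and 6768 reads, with a log2 ratio of -0.17 and an interval of -0.22 to -0.12. *Eef1d* was at 215 and 179, with a log2 ratio of -0.26 and an interval of -0.32 to -0.20, the lowest of the group. *Eef2k*, the kinase that inhibits eEF2, was at 31.0 and 27.7, with a log2 ratio of -0.16 and an interval of -0.29 to -0.04. *Eef1e1*, a component of the multi-synthetase complex, was at 45.7 and 44.4, and its interval of -0.15 to 0.07 included 0.

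*Eef1a2*, the second eEF1A gene, which replaces *Eef1a1* in adult muscle and neurons, was at 0.241 RPKM in the control and 0.174 in the mutant library, from 10 and 7 reads, and a difference was not detectable at this depth. The pair aligns over 1385 bases with 80.5% identity. *Eef1a1* also has processed copies elsewhere in the genome, and in all 46 copies of 18 translation factor genes were found with an identity of at least 90%. Of these copies 13 were above 0 in either library and 4 averaged 1 RPKM or more. *Gm13456*, a pseudogene on chromosome 2 that matches *Eef1a1* with 98.6% identity over 1317 bases, was at 4.01 RPKM in the control and 10.99 in the mutant library, from 109 and 290 reads, with a log2 ratio of 1.26 and an interval of 1.13 to 1.79. It was the only one of these 4 copies past 1.5-fold, and its reads cannot be told apart from those of its parent where the sequences are identical. *Gm6548*, a second copy of *Eef1a1*, was at 11.2 and 12.1 RPKM. Reads on all the copies of *Eef1a1* came to 0.28% of those on the gene itself in the control and 0.475% in the mutant library, and adding them left its log2 ratio at -0.12.

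Next, shared sequence at the gene starts was examined. The octamer CCGGAAGT, the binding motif of ETS family factors, was found on either strand in the windows of 8 of 42 translation factor genes (19.0%) and of 4.31% of all genes with a window. The latter share includes genes that were not expressed. Of genes averaging 1 RPKM or more, 948 had the octamer and 9697 lacked it, against 8 and 33 of the translation factor genes. Of these 8 genes 7 were lower in the mutant library, as were 22 of the 33 measured translation factor genes with a window that lacks the octamer. *Eif2b2* moved to the higher side once the length and GC trend was removed. The median log2 ratio was -0.22 for the 8 genes and -0.05 for the 33, and the difference was not tested. Among all tested genes the median was -0.01 for the 948 with the octamer, of which 491 were lower, and 0.01 for the 9697 without, of which 4535 were lower. TATAAA was found in 5 of the 42 genes (11.9%) and in 15.7% of all genes with a window, expressed or not. Of those averaging 1 RPKM or more, 915 had it and 9730 lacked it, against 5 and 36 of the translation factor genes. None of the 3 motifs contains another, and a match says only that these bases are present. Of the 8 genes (*Eef1b2*, *Eif2b2*, *Eif2b4*, *Eif3d*, *Eif3l*, *Eif4e2*, *Eif5a* and *Eif5a2*) 4 are shown, 2 of them eIF2B subunits, with the octamer or its reverse complement in capitals. All 4 were lower as deposited, and *Eif4e2*, the higher gene of the 8, is not shown. The stretches, in the direction of the gene, are chr5:31193120-31193149 (minus strand), chr12:85219486-85219515 (plus), chr1:63176821-63176850 (plus) and chr15:79075176-79075205 (plus).
Eif2b4: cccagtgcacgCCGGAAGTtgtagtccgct
Eif2b2: cctctctcggcCCGGAAGTgaaacagtgct
Eef1b2: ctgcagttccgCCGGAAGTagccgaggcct
Eif3l: ggctgggcgggACTTCCGGtccggccaagc
*Eif2b4* and *Eif2b2* carry the octamer in the same orientation, and their log2 ratios were -0.35 and -0.07, the latter moving above 0 with the length and GC trend removed.

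The log2 ratio moved with length and base composition, both among the translation factor genes and in general. The 11 translation factor genes with a length of under 1000 bases had a median of -0.14, the 19 from 1000 to 1999 bases -0.10 and the 22 of 2000 bases or more -0.01. Among protein-coding genes of at least 25 RPKM the medians of the same classes were -0.07, -0.0049 and 0.04. The 16 translation factor genes under 45% GC had a median of 0.03, the 8 from 45% to 50% -0.11 and the 28 of at least 50% -0.15, against 0.04, 0.01 and -0.02 in the larger group. As a description across genes, which share both libraries, the Spearman correlation of the log2 ratio with length was 0.34 for the 52 genes and 0.28 for the larger group, and with GC -0.47 and -0.17. The part of length and GC in these values was not tested. With the trend of both among protein-coding genes removed, an alternative chosen after seeing the data, the median of the 52 genes was -0.08 in place of -0.10, with 35 lower and 17 higher.

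**Figure D3:**
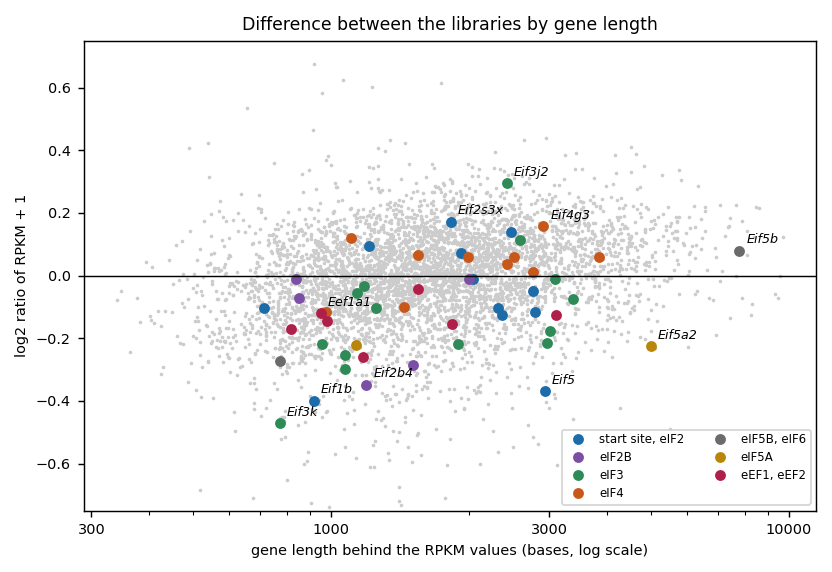
Log2 ratio of RPKM + 1, mutant (*Bcas2 F/-;Vasa-Cre*) over control, against the gene length behind the RPKM values on a log axis, for the translation factor genes (coloured by role) and 5037 protein-coding genes averaging 25 RPKM or more (grey), with 11 more outside the axes. Short genes tend to lie below 0 in both sets, and *Eif5* and *Eif5a2* lie below 0 at 2932 and 4992 bases.

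Other genes of translation were set beside these factors. Of 82 cytosolic ribosomal protein genes found by a pattern of their names, 78 were lower in the mutant library, with a median log2 ratio of -0.17 and a summed level of 62426 RPKM in the control and 55217 there. *Rpl35a*, at 712 and 472 RPKM, was the only one past 1.5-fold on the scale of RPKM + 1, and *Rpl10l*, at 39.4 and 26.2, was past it only without the added 1. The pattern missed *Rps3a1*, which had a log2 ratio of 0.37 and is not among the 82. Of 20 cytosolic aminoacyl-tRNA synthetase genes 15 were lower, with a median of -0.09. The 4 lists of regulators, termination and recycling factors, helicases and mitochondrial factors held 42 measured genes, of which 24 were lower and 18 higher, with a median of -0.05 and 0 past 1.5-fold. The differences between these lists and the translation factors were not tested.

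Among the regulators, 12 of 18 were lower, with a median log2 ratio of -0.06. *Paip2b*, an inhibitor of the poly(A)-binding protein, was lowest, with 67.7 RPKM in the control and 57.3 in the mutant library, followed by *Dohh*. *Eif2ak2*, the kinase of eIF2 that senses double-stranded RNA, was highest with 27.7 and 30.7. *Eif2ak4*, the kinase that senses missing amino acids, followed with 11.4 and 12.6. The eIF2 kinase genes did not differ alike. *Eif2ak1* was lower in the mutant library, with a log2 ratio of -0.20 and an interval of -0.33 to -0.08. For *Eif2ak3* the log2 ratio was 0.06, with an interval of -0.10 to 0.23. *Ppp1r15a*, a further gene of this list, was lower, with a log2 ratio of -0.19 and an interval of -0.36 to -0.05. *Atf4*, a transcription factor whose translation depends on eIF2 phosphorylation, was at 61.1 and 66.6, and the eIF4E inhibitors *Eif4ebp1* and *Eif4ebp2* were at 65.5 and 57.5 and at 38.6 and 33.9. Of the 11 termination, recycling and tail-binding genes 6 were lower. *Pabpc1*, the main poly(A)-binding protein, was at 535 and 474 RPKM, and *Abce1*, which splits ribosomes, was at 50.4 and 43.6. At the other end were *Hbs1l*, a rescue factor, at 28.99 and 34.1 and *Etf1*, the release factor, at 113 and 122.

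The helicase genes *Ddx3x* and *Ddx3y* form a second X and Y pair of the initiation machinery. *Ddx3y* was at 25.1 RPKM in the control and 33.1 in the mutant library, from 2319 and 2971 reads, with a log2 ratio of 0.39 and an interval of 0.32 to 0.48. *Ddx3x* was at 256 and 286, with a log2 ratio of 0.16 and an interval of 0.12 to 0.21. Both were on the higher side, as were *Eif2s3x* and *Eif2s3y*, whereas the X-linked *Eif1ax* was lower with a log2 ratio of -0.12. Of all genes 53.7% were higher, and the share among genes of the sex chromosomes was not computed. *Eefsec*, the elongation factor for selenocysteine, was at 11.7 and 8.77, and *Dhx29*, a helicase for structured leaders, at 13.2 and 11.4. The 9 mitochondrial factors were split into 4 lower and 5 higher, from *Mtif3* at -0.10 to *Mtrf1* at 0.19, and no interval lay below 0.

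**Figure D4:**
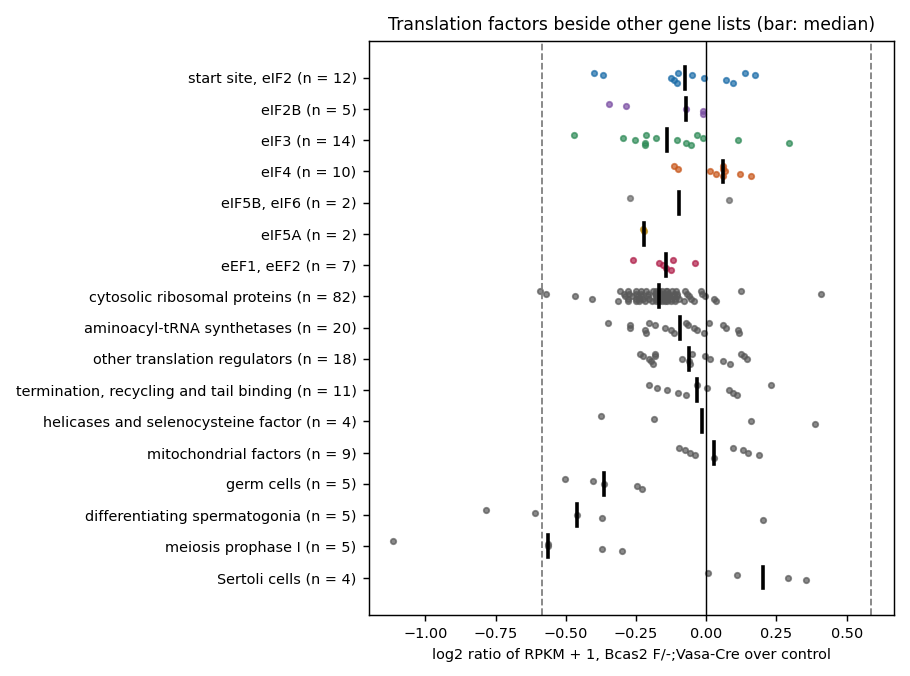
Log2 ratio of RPKM + 1, mutant (*Bcas2 F/-;Vasa-Cre*) over control, for each gene (point) of the translation factor groups (coloured), other translation genes and 4 lists of cell type markers (grey), with a bar at the median of each list and dashed lines at 1.5-fold. The elongation factors and ribosomal proteins lie mostly left of 0, the eIF4 factors about 0 with a median of 0.06, the markers of germ cells and meiosis further left with medians of -0.37 and -0.56, and the Sertoli cell markers right of 0 with a median of 0.20. The markers of undifferentiated spermatogonia, with a median of 0.10, are not drawn.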

How the data were processed

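Total RNA of whole P9 testes was sequenced, 1 library for each of 2 genotypes. The authors trimmed and aligned the paired reads, counted the reads on each gene (HTSeq) and deposited the result as RPKM. The submitters' processing notes name TopHat2 2.0.9 and the build mm10, which is GRCm38. The annotation release and the use of strand in counting are not given in the sources used here, so that genes overlapping on opposite strands cannot be told apart. RPKM corrects for length and depth but not for RNA composition.

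Of the 39695 entries, 37692 (95.0%) were matched by identifier to GENCODE M21. The 14831 entries averaging 1 RPKM or more were compared as log2 of (RPKM + 1), which understates differences of low genes. Whole reads were recovered by finding the gene length at which both libraries gave whole numbers to within 0.0001 reads, which succeeded for 99.8% of matched entries above 0. They summed to 100.7% and 100.5% of the library totals, so that some entries may be off by a whole factor. Counting intervals were 95% Clopper-Pearson bounds of the mutant share of reads, turned into a log2 RPKM ratio. They were tried on simulated data, but from the simulated reads and not from recovered ones. That trial therefore does not cover errors in the recovery of reads.

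Members and lists were chosen with earlier results of these data known. Full values are given for the 8 highest genes, the 6 lowest and 6 highest ratios, paralogs and genes below 1 RPKM, and in other translation lists for genes past 1.5-fold and the 2 lowest and 2 highest. *Dhps*, *Atf4*, *Eif4ebp1*, *Eif4ebp2*, *Eif2ak1*, *Eif2ak3*, *Ppp1r15a*, *Rps3a1* and the copies of *Eef1a1* were chosen after their values were seen. Alternatives were another pseudocount (0.1 or 0.01), centring on the median of all genes, a common sum of 1000000 RPKM, no filter, a minimum mean RPKM of 5 and, chosen after seeing the data, removal of the trend with length and GC. Copies were sequences aligned over at least 300 bases and 50% of their length with 90% identity. Scripts ran in Python 3.11.15, using scipy 1.17.1 for intervals, pandas 2.3.3 and numpy 2.4.6 for tables and matplotlib 3.10.9 for plots.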

Additional observations from a re-analysis of the deposited data

How the results depend on the processing

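The 52 translation factor genes had 0 genes past 1.5-fold in either direction under every alternative run, and their median log2 ratio stayed below 0, from -0.12 with all genes centred on a median of 0 to -0.07 with rescaled RPKM. The number of lower genes ran from 33 with rescaled RPKM to 39 without a filter on mean RPKM, when *Eif4e1b* and *Eef1a2* were included. Sign changes were found for *Eif2b1*, *Eif2b5*, *Eif2s1* and *Eif3e* with rescaled RPKM, for *Eif4g1* with that centring, and for *Eif2b1*, *Eif2b2*, *Eif3f* and *Eif5b* with the trend in length and GC removed, and none with another pseudocount. All of these genes were close to 0 as deposited, and the cause of their change was not tested. Genes with a counting interval that left out 0 numbered 37 as deposited and 39 with all genes centred. Depth limits *Eif4e1b* and *Eef1a2*, with 12 and 10 reads in the control library. No paired analysis was possible because each genotype had 1 library and the labels carry no replicate numbers.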
